A study of Mus musculus with 4 samples.

Results

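Collagens are the main structural proteins of the extracellular matrix, and the 44 genes of the mouse family that the deposited gene table names were compared between hearts of mice aged 12 months and hearts of mice aged 8 weeks. They were taken by name, as every gene symbol made of Col, a type number, the letter a and a chain number, out of 28723 genes in the table. By structure they comprise 11 fibrillar, 6 basement membrane, 9 FACIT (fibril-associated, with interrupted helices), 6 beaded filament, 4 transmembrane, 2 multiplexin and 3 hexagonal network genes, and 3 further genes (Col7a1, Col26a1 and Col28a1). Poly(A) RNA of whole hearts was sequenced in 4 libraries, 2 from mice aged 12 months and 2 from mice aged 8 weeks. All mice were C57BL/6J, kept under specific pathogen-free conditions, given as wild type and left untreated. The titles of both 12-month libraries carry the word FLOX and those of the 8-week libraries the letter C, which the labels do not explain. The ages are given in a label field named batch. Titles and field change together with age, so age cannot be told apart from a difference in mouse line or batch. Neither the sex of the mice nor any pooling is stated. The labels do not say whether the 2 libraries of an age are separate animals. The spread behind each p-value is therefore that between libraries and may be technical.

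A collagen molecule is a helix of 3 chains, built from repeats in which glycine recurs at a fixed spacing, and the chains can come from 1 gene or from several. Fibrillar collagens of types I and III carry the tensile load between heart muscle cells and are made mostly by fibroblasts. Type IV chains form the sheet-like network of the basement membrane that surrounds capillaries and muscle cells. FACIT collagens sit on the surface of fibrils, type VI collagen forms beaded filaments near cells, and the transmembrane types are held in the plasma membrane.

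Most collagen genes did not pass the test between the ages, and those that did moved in both directions. Of the 44 genes, 19 averaged at least 1 FPKM (fragment counts scaled by transcript length and library size) over the 4 libraries and were tested, and each of these 19 averaged at least 1 FPKM at both ages. Col14a1, a fibril-associated collagen, rose 2.40-fold. Col4a1, a main chain of the basement membrane, and the fibrillar chains Col5a3 and Col11a2 fell, to 0.69, 0.718 and 0.654 of the 8-week level. The other 15 tested genes did not pass, among them Col1a1, Col1a2 and Col3a1, the major fibrillar chains. The test was edgeR's quasi-likelihood test over all 12027 genes that reached 1 FPKM, and a gene was called when its p, adjusted by Benjamini-Hochberg, was below 0.05. It called 21.1% of the tested collagen genes (1 higher and 3 lower), against 37.6% of all tested genes (20.1% higher and 17.5% lower). With limma on FPKM rescaled to one sum per library, 2 collagen genes were called higher (Col14a1 and Col3a1) and 0 lower, and over all genes the split was 3797 higher and 1095 lower, against 2416 and 2104 with edgeR. The median log2 fold change, 12 months minus 8 weeks, was 0.04 over the 19 collagen genes and 0.01 over all tested genes, and its median size without regard to sign was 0.27 for collagen genes and 0.31 for all. In whole-heart RNA, fewer cells of a type and less RNA per cell cannot be told apart.

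The libraries held 51328364 to 63828074 estimated counts, and collagen genes took 0.277% of the counts in 12-month replicate 1 (95% Wilson interval 0.276% to 0.279%), 0.222% in 12-month replicate 2 (0.22% to 0.223%), 0.245% in 8-week replicate 1 (0.244% to 0.246%) and 0.271% in 8-week replicate 2 (0.27% to 0.272%). These intervals cover counting error only, and the libraries of 1 age differed by far more than that. The 12-month libraries differed from each other across nearly the whole family: 18 of the 19 tested collagen genes had a higher FPKM in 12-month replicate 1 than in replicate 2, against 42.6% of all tested genes. Likewise 16 of the 19 were higher in 8-week replicate 2 than in 8-week replicate 1, against 50.9% of all. Heart muscle genes marked the tissue in every library, with summed FPKM of Myh6, Tnnt2, Tnni3, Actc1, Ryr2 and Myl2 of 12374 and 12083 at 12 months and 12607 and 12631 at 8 weeks. Of these 6, Ryr2 and Actc1 rose and Myl2, Tnni3 and Tnnt2 fell.

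**Figure D1:**
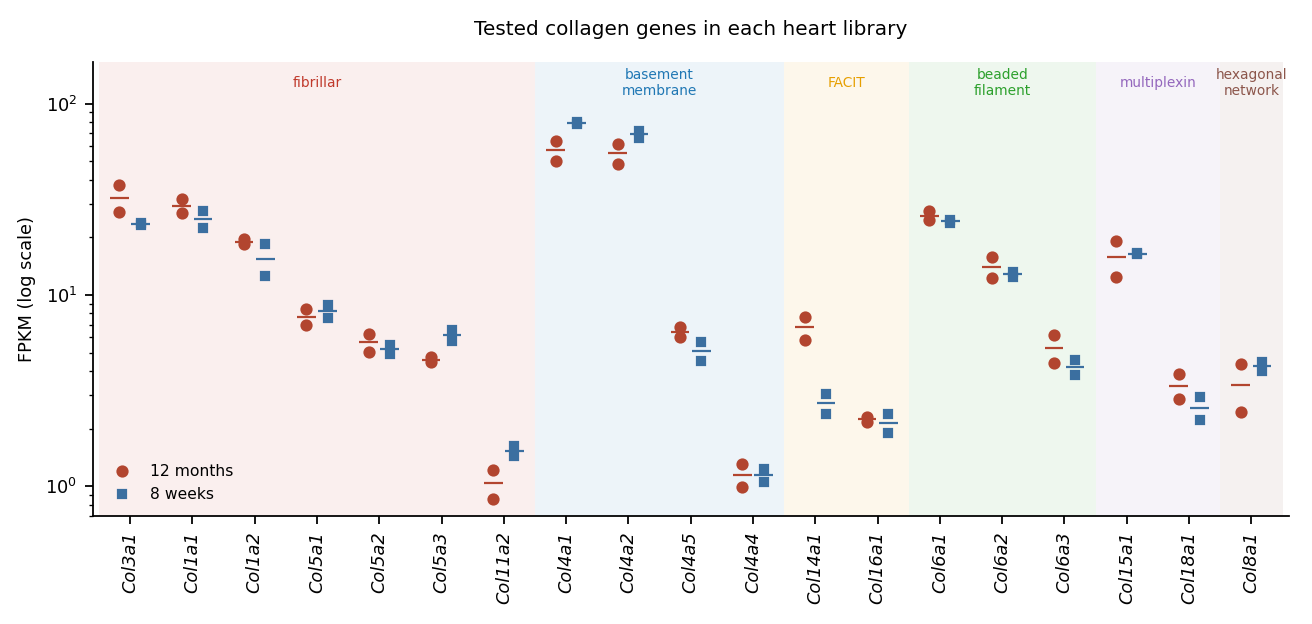
FPKM on a log scale of the 19 tested collagen genes, grouped by class, with 1 point per library (12 months as circles, 8 weeks as squares) and a line at each mean. Col4a1 and Col4a2 lie highest, at 48.1 to 80.4 FPKM, and Col14a1 has its 12-month points (7.71 and 5.82) above its 8-week points (3.04 and 2.39).

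Fibrillar collagens were led by types I and III. Col3a1, the chain of type III collagen, which is abundant in compliant tissue and forms trimers of itself, was at 37.5 and 27.0 FPKM in the 12-month libraries and at 23.1 and 23.7 FPKM in the 8-week libraries. The ages did not overlap, but the gap came mainly from 12-month replicate 1, and the difference did not pass (log2 fold change 0.41 ± 0.16, SE, adjusted p = 0.0973 with edgeR). Its log2 fold change was 0.64 without 12-month replicate 2 and 0.11 without 12-month replicate 1, and it was called higher in that fit without replicate 2 (adjusted p = 0.000667) and by DESeq2 (adjusted p = 0.0255). Col1a1, the chain present in 2 copies in each type I molecule, was at 31.8 and 26.8 FPKM at 12 months and at 22.3 and 27.6 FPKM at 8 weeks, which overlap (0.18 ± 0.14, adjusted p = 0.356). Col1a2, its partner chain, was at 19.5 and 18.4 FPKM at 12 months and at 12.5 and 18.4 FPKM at 8 weeks, so that 1 of the 8-week libraries lay well below the other 3 (0.23 ± 0.18, adjusted p = 0.336).

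Type V chains join type I fibrils and limit their diameter. Col5a1, the chain needed for this, was at 8.47 and 6.93 FPKM at 12 months and at 7.6 and 8.84 FPKM at 8 weeks (-0.15 ± 0.13, adjusted p = 0.388). Col5a2 was at 6.25 and 5.05 FPKM at 12 months and at 4.92 and 5.50 FPKM at 8 weeks (0.06 ± 0.13, adjusted p = 0.738). Both overlapped between the ages. Col5a3, the remaining type V chain, which enters only part of the molecules, was at 4.73 and 4.46 FPKM at 12 months and at 5.73 and 6.56 FPKM at 8 weeks. Both 12-month libraries lay below both 8-week libraries, and the gene fell (log2 fold change -0.48 ± 0.10, adjusted p = 0.0133). Col11a2, a chain of type XI collagen best known from cartilage, was at 0.856 and 1.22 FPKM at 12 months and at 1.43 and 1.62 FPKM at 8 weeks, and it fell as well (-0.61 ± 0.19, adjusted p = 0.048). Of the 7 tested fibrillar genes, 2 fell, none rose and 5 did not pass, with a median log2 fold change of 0.06. The FPKM of the ages did not overlap for 7 of the 19 tested collagen genes, against 72.5% of all tested genes, and 3 of the 7 were fibrillar.

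The sequence before the start of Col5a3 and of Col11a2 is given next, from the RefSeq promoter table on GRCm38.p6, because these are the fibrillar genes that fell. Each stretch covers the 250 bases before the start in RefSeq, 5′ to 3′ on the strand of the gene, and lies outside annotated exons. Capitals mark 3 motifs, each searched on both strands. The GC box was read as the letters GGGCGG on either strand. The second motif was the CCAAT box, spelled as in its name. For the TATA box the letters searched were TATAAA. Col5a3 lies at chr9:20815068-20815317 on the minus strand and Col11a2 at chr17:34038888-34039137 on the plus strand, where RefSeq places the start upstream of the start in the deposited table (34039437).
Col5a3: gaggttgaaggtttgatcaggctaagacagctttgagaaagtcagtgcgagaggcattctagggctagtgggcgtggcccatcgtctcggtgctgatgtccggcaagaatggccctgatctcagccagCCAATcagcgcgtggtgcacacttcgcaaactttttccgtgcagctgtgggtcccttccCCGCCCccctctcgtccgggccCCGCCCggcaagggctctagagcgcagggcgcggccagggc
Col11a2: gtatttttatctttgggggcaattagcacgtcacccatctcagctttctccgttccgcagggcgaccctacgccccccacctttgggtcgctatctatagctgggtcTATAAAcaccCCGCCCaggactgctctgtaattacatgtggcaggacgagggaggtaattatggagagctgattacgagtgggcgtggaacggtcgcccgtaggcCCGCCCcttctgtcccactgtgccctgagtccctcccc
Each holds 2 GC boxes, and Col5a3 holds 1 CCAAT box and Col11a2 1 TATA box. Windows with at least 1 GC box made up 32.7% of 32851 promoter windows of this length, those with a CCAAT box 33.8% and those with a TATA box 12.4%. Of the 35 collagen genes with a window in that table (38 windows), 21 had a GC box in any window, 13 a CCAAT box and 5 a TATA box. These counts are per gene and the percentages per window. No window was listed for Col1a1, Col14a1 or Col12a1 among others.

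The remaining 4 fibrillar genes were below 1 FPKM. Col27a1, a fibrillar chain of cartilage, was at 0.661 and 0.492 FPKM at 12 months and at 0.524 and 0.55 FPKM at 8 weeks. Col2a1, the main cartilage collagen, was at 0.171 and 0.173 FPKM at 12 months and at 0.123 and 0.196 FPKM at 8 weeks. Both overlapped between the ages. Col11a1, the partner of Col11a2 in type XI collagen, had 54 and 63 counts (0.0671 and 0.0875 FPKM) at 12 months and 116 and 139 counts (0.154 and 0.152 FPKM) at 8 weeks. With the minimum lowered to 0.1 FPKM, which put 19236 genes and 34 collagen genes in the test, its log2 fold change was -1.0 ± 0.32 and did not pass (adjusted p = 0.0756). Col24a1 had 13 and 15 counts at 12 months and 17 and 26 at 8 weeks.

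Among the basement membrane genes, Col4a1 and Col4a2 were the most abundant of the family. The 2 chains assemble into 1 molecule, the common type IV collagen of vessels and muscle cells. Col4a1 was at 63.9 and 49.8 FPKM in the 12-month libraries and at 78.0 and 80.4 FPKM in the 8-week libraries, and it fell (log2 fold change -0.53 ± 0.13, adjusted p = 0.025). Col4a2 was at 61.8 and 48.1 FPKM at 12 months and at 66.3 and 72.1 FPKM at 8 weeks, also without overlap, and did not pass (-0.39 ± 0.14, adjusted p = 0.071). Without 12-month replicate 1 both were called lower, with log2 fold changes of -0.76 for Col4a1 and -0.62 for Col4a2. Without 12-month replicate 2 they were -0.35 for Col4a1, which was still called, and -0.20 for Col4a2, which was not (adjusted p = 0.091). With all libraries, Col4a2 was called lower by DESeq2 (adjusted p = 0.0121), with a minimum of 5 FPKM (adjusted p = 0.0425) and with the length trend removed (adjusted p = 0.0341).

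The Col4a1 and Col4a2 genes lie head to head on chromosome 8 (GRCm38), at 11198423 to 11312826 on the minus strand and at 11312805 to 11449287 on the plus strand, and their annotated starts share 22 bases, at chr8:11312805-11312826. The shared stretch is shown because reads over it belong to both genes unless the counting used strand, which the sources used here do not state. It was read from the RefSeq table on the strand of Col4a1 and holds 1 GC box, in capitals.
Col4a1 and Col4a2: ttggagacgCCGCCCgcgcact
The Col4a3 and Col4a4 starts, on chromosome 1, are also head to head and stand 71 bases apart. The gap between them, at chr1:82586850-82586920 on the strand of Col4a4, is the whole stretch that separates this pair.
Col4a4: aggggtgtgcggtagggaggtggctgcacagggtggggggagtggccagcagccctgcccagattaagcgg
It holds none of the 3 motifs. The last pair, Col4a5 and Col4a6, stands 1308 bases apart on the X chromosome.

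The other type IV chains form the rarer networks. Col4a5, which joins Col4a3 and Col4a4 in the kidney filter and Col4a6 around smooth muscle, was at 6.77 and 6.06 FPKM at 12 months and at 4.53 and 5.69 FPKM at 8 weeks, without overlap (0.27 ± 0.13, adjusted p = 0.155). Col4a6 averaged 0.999 FPKM over all libraries, just below the minimum, with 1.32 and 1.45 FPKM at 12 months and 0.305 and 0.917 FPKM at 8 weeks. The ages did not overlap, and the 8-week libraries lay far from each other. At the lower minimum its log2 fold change was 1.15 ± 0.45 (adjusted p = 0.124). Col4a4 was at 1.31 and 0.997 FPKM at 12 months and at 1.23 and 1.05 FPKM at 8 weeks (-0.04 ± 0.18, adjusted p = 0.874). Col4a3 was at 0.402 and 0.424 FPKM at 12 months and at 0.643 and 0.446 FPKM at 8 weeks (-0.43 ± 0.24, adjusted p = 0.26, at the lower minimum). Of the 4 tested basement membrane genes, 1 fell, none rose and 3 did not pass, with a median of -0.21.

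Vessel cells are among those that make type IV collagen. All 10 endothelial markers fell, among them Egfl7, Cdh5, Tie1, Kdr and Tek (median -1.06), with summed FPKM of 160 and 155 at 12 months and 327 and 326 at 8 weeks, beside log2 fold changes of -0.53 for Col4a1 and -0.39 for Col4a2. Of 10 markers of mural cells, the pericytes and smooth muscle of vessels, 5 fell, among them Vtn, Kcnj8, Rgs5 and Pdgfrb, and the contractile genes Cnn1 and Tagln rose (median -0.40), with sums of 199 and 196 at 12 months and 254 and 287 at 8 weeks. Over all tested genes, 17.5% were called lower and 20.1% higher. The part of endothelial and mural cells in the type IV values was not tested.

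Among the FACIT genes, Col14a1 rose. Type XIV collagen binds to type I fibrils and takes part in their spacing and alignment. Col14a1, on chromosome 15 at 55307750 to 55520803, was at 7.71 and 5.82 FPKM (3232 and 2268 counts) at 12 months and at 3.04 and 2.39 FPKM (1235 and 1173 counts) at 8 weeks. Both 12-month libraries lay well above both 8-week libraries, and the gene rose (log2 fold change 1.26 ± 0.18, adjusted p = 0.00435). It was the only tested collagen gene to change by at least 2-fold, a size reached by 7.13% of all tested genes, and the only one called in each of the 4 fits that left out 1 library (log2 fold change 1.01 to 1.47). Col12a1, the FACIT collagen closest to it in structure, was at 0.397 and 0.341 FPKM at 12 months and at 0.175 and 0.245 FPKM at 8 weeks, without overlap. At the lower minimum its log2 fold change of 0.78 ± 0.24 did not pass (adjusted p = 0.0679).

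Fibroblasts are the main source of fibril-associated collagen in many tissues. Of 11 tested fibroblast markers other than collagens, 3 rose (Fbln1, Pdgfra and Dpt) and none fell (median 0.13), with sums of 758 and 799 at 12 months and 732 and 641 at 8 weeks. Of 9 tested markers of activated fibroblasts, 3 rose (Ltbp2, Thbs4 and Comp) and none fell (median 0.41). The whole list had sums of 175 and 195 at 12 months and 151 and 142 at 8 weeks. Ltbp2 averaged 1.52 FPKM at 12 months and 0.662 at 8 weeks, so it reached the minimum only through the 12-month libraries. Beside the 20.1% of all tested genes called higher and the 37.6% called in either direction, neither count is a result about fibroblasts. The summed FPKM of markers of tissue at the edges of a dissected heart differed too. The 9 valve and cartilage markers summed to 18.8 and 13.0 FPKM at 12 months and to 9.35 and 5.86 FPKM at 8 weeks, most of it from Prg4 and Cilp2. The others of this list all overlapped in FPKM between the ages. Their means were higher at 12 months for Sox9, Hapln1, Cnmd and Chad and lower for Matn4, Acan and Chadl. The 7 mesothelial markers summed to 26.5 and 24.6 FPKM at 12 months and to 2.37 and 3.72 FPKM at 8 weeks. Among them were Upk3b, Msln, Krt19, Upk1b and Lrrn4. Wt1, also on this list, was at 1.02 and 1.23 FPKM at 12 months and at 1.22 and 1.27 FPKM at 8 weeks. These overlap, and Wt1 did not pass (log2 fold change -0.21 ± 0.15, adjusted p = 0.317 with edgeR). The 7 fat cell markers, Pck1, Plin1, Cidec, Adipoq and Ucp1 among them, summed to 132 and 139 FPKM at 12 months. At 8 weeks they summed to 10.7 and 2.99 FPKM. Of the valve, mesothelial and fat cell markers that were tested, 1 in each list averaged at least 1 FPKM at both ages. The others reached the minimum only through the 12-month libraries, where they were high, so none of their calls is read as a result. The 6 atrial muscle markers had sums of 4400 and 1674 at 12 months and 281 and 287 at 8 weeks, and the 5 that averaged at least 1 FPKM at both ages rose (Mybphl, Sln, Myl7, Myl4 and Nppa). Of 5 tested Schwann cell markers none passed, and 2 of 5 tested macrophage markers rose (Adgre1 and Mrc1). No marker of these lists was at 0 in any library, and the part of these cells in the Col14a1 and other collagen values was not tested.

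Col16a1, a FACIT collagen found near fibrils and cell surfaces, was at 2.31 and 2.18 FPKM at 12 months and at 1.91 and 2.39 FPKM at 8 weeks (0.01 ± 0.15, adjusted p = 0.977). Col20a1 was at 0.426 and 0.599 FPKM at 12 months and at 0.544 and 0.613 FPKM at 8 weeks. The type IX genes of cartilage were low: Col9a2 was at 0.165 and 0.357 FPKM at 12 months and at 0.387 and 0.394 FPKM at 8 weeks. Col9a3 was at 0.312 and 0.18 FPKM at 12 months and at 0.15 and 0.328 FPKM at 8 weeks, which overlap. None of these 3 low genes passed at the lower minimum (adjusted p = 0.637 for Col20a1, 0.395 for Col9a2 and 0.969 for Col9a3). Col22a1, known from junctions of muscle and tendon, had 64 and 48 counts at 12 months and 18 and 71 at 8 weeks. Col9a1 had 22 and 18 counts at 12 months and 0 and 27 at 8 weeks, and Col19a1 had at most 4 in any library.

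**Figure D2:**
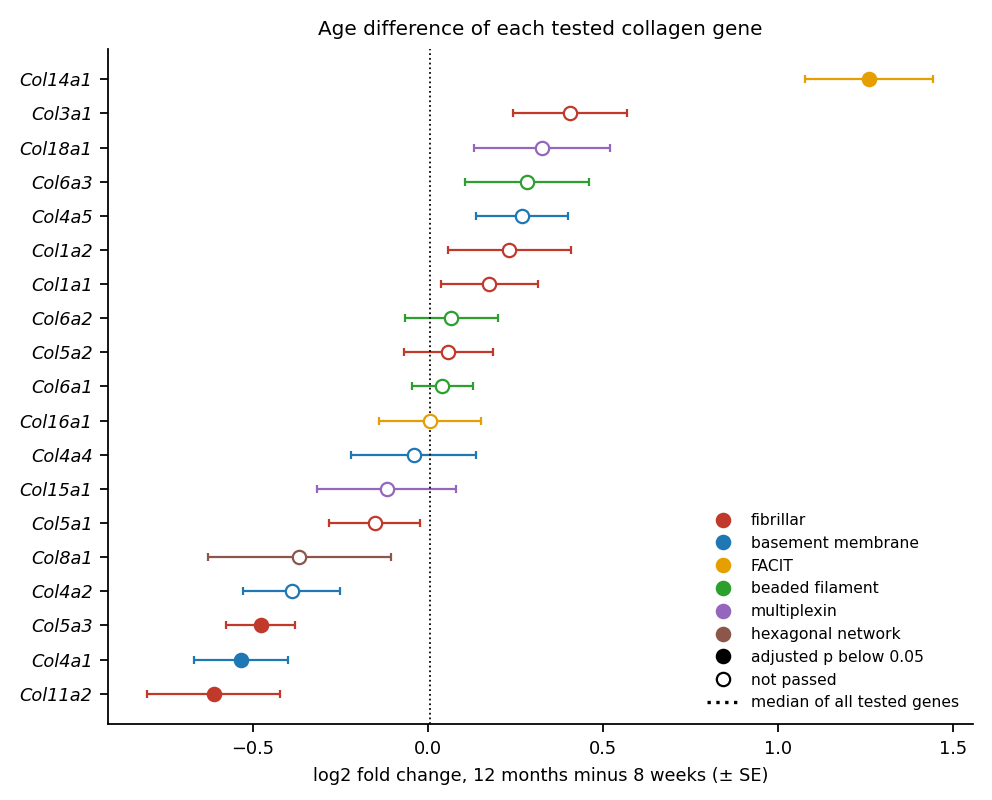
Log2 fold change (12 months minus 8 weeks, ± SE) of the 19 tested collagen genes, in order of size and coloured by class. Filled points passed an adjusted p below 0.05, and the dotted line is the median of all tested genes (0.01). Col14a1 (1.26) stands apart on the right, and Col11a2, Col4a1 and Col5a3 are the filled points on the left.

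Type VI collagen forms beaded filaments, with Col6a1 and Col6a2 paired with 1 longer chain such as Col6a3. Col6a1 was at 27.3 and 24.6 FPKM at 12 months and at 23.7 and 24.8 FPKM at 8 weeks (0.04 ± 0.09, adjusted p = 0.729). Col6a2 was at 15.7 and 12.3 FPKM at 12 months and at 12.4 and 13.2 FPKM at 8 weeks (0.07 ± 0.13, adjusted p = 0.714). Col6a3 was at 6.15 and 4.42 FPKM at 12 months and at 3.8 and 4.56 FPKM at 8 weeks (0.28 ± 0.18, adjusted p = 0.252). All 3 overlapped between the ages, and none of the 3 tested beaded filament genes passed. Their median was 0.07. Without 12-month replicate 2, Col6a2 (0.25, adjusted p = 0.0409) and Col6a3 (0.52, adjusted p = 0.0137) were called higher.

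Col6a6, which can take the place of Col6a3, was below the minimum of 1 FPKM, at 0.90 and 0.81 FPKM (494 and 413 counts) at 12 months and at 0.491 and 0.484 FPKM (261 and 311 counts) at 8 weeks. The ages did not overlap and the libraries of each age lay close together. At the lower minimum it rose (log2 fold change 0.78 ± 0.17, adjusted p = 0.0211). It was the only one of 15 collagen genes between 0.1 and 1 FPKM to pass there. That test called 22.7% of all 19236 genes, 13.3% higher and 9.32% lower. It called 2 collagen genes higher (Col14a1 and Col6a6) and 2 lower (Col4a1 and Col5a3) of 34. The 175 bases at the far end of the RefSeq window of Col6a6 (GRCm38.p6, chr9:105828161-105828335, minus strand) lie outside annotated exons and hold 2 GC boxes, in capitals. Over the same bases, 20.2% of all windows held at least 1 GC box.
Col6a6: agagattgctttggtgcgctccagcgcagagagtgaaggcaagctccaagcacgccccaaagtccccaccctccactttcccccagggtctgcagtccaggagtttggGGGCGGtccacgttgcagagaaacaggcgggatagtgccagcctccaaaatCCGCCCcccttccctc
Its neighbours on chromosome 9 were close to absent. Col6a5 had 52 and 36 counts at 12 months and 22 and 20 at 8 weeks, and Col6a4 had 0 and 18 at 12 months and 4 and 0 at 8 weeks.

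None of the 4 transmembrane genes reached 1 FPKM. Col23a1 was at 0.862 and 0.608 FPKM at 12 months and at 0.557 and 0.477 FPKM at 8 weeks (0.48 ± 0.27, adjusted p = 0.271, at the lower minimum). Col13a1, a collagen of the motor endplate, was at 0.175 and 0.156 FPKM at 12 months and at 0.309 and 0.187 FPKM at 8 weeks (-0.65 ± 0.43, adjusted p = 0.335). Neither gene overlapped between the ages, and they lay in opposite directions. Col25a1 had 44 and 21 counts at 12 months and 68 and 65 at 8 weeks. Col17a1, a collagen of hemidesmosomes in skin, had 10 and 31 counts at 12 months and 10 and 7 at 8 weeks.

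The multiplexins are basement membrane collagens whose ends can be released as soluble fragments, endostatin in the case of Col18a1. Col15a1 was at 19.0 and 12.4 FPKM at 12 months and at 16.5 and 16.3 FPKM at 8 weeks, so that the 12-month libraries lay on either side of the 8-week ones (-0.12 ± 0.20, adjusted p = 0.668). Col18a1 was at 3.85 and 2.87 FPKM at 12 months and at 2.23 and 2.93 FPKM at 8 weeks (0.33 ± 0.19, adjusted p = 0.228). Col8a1, a network collagen of vessel walls, was at 4.35 and 2.46 FPKM at 12 months and at 3.98 and 4.48 FPKM at 8 weeks (-0.37 ± 0.26, adjusted p = 0.308). For Col8a1, 1 of the 12-month libraries lay within the 8-week range and the other below it. Whether these 3 genes were called turned on single 12-month libraries. Without replicate 1, Col15a1 (-0.50, adjusted p = 0.00424) and Col8a1 (-0.88, adjusted p = 0.00157) were called lower. Without replicate 2, Col18a1 was called higher (0.54, adjusted p = 0.0408) and Col8a1 was at -0.0001.

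Its partner Col8a2 was at 0.331 and 0.244 FPKM at 12 months and at 0.332 and 0.333 FPKM at 8 weeks, and Col10a1, of growth plate cartilage, had at most 8 counts in any library. Col28a1, a collagen of the sheath around peripheral nerves, was at 0.254 and 0.247 FPKM at 12 months and at 0.46 and 0.406 FPKM at 8 weeks, without overlap (-0.81 ± 0.31, adjusted p = 0.114, at the lower minimum). Col7a1, which forms the anchoring fibrils of skin, was at 0.184 and 0.225 FPKM at 12 months and at 0.182 and 0.308 FPKM at 8 weeks. Col26a1 had 7 and 9 counts at 12 months and 18 and 19 at 8 weeks. In all, 10 collagen genes averaged less than 0.1 FPKM and had between 0 and 71 counts in a library, and these were tested at neither minimum.

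Because FPKM is scaled by length, the chains can be added within a library. Summed over all 44 genes, collagen FPKM was 336 and 269 at 12 months and 301 and 329 at 8 weeks, and the 12-month libraries lay on either side of the 8-week ones. The mean at 12 months was 0.961 of that at 8 weeks, and 1.06 of it with each library rescaled to one FPKM sum. Most class shares of that sum separated the ages. Basement membrane genes made up 40.3% and 39.8% of it in the 12-month libraries and 50.2% and 48.8% in the 8-week libraries. Fibrillar genes made up 32.7% and 33.7% at 12 months and 26.1% and 28.3% at 8 weeks. Neither share overlapped between the ages, and both libraries of an age lay closer to each other than to the other age. FACIT genes made up 3.42% and 3.59% at 12 months and 2.07% and 1.99% at 8 weeks, and beaded filament genes 14.9% and 15.7% at 12 months and 13.4% and 13.1% at 8 weeks. The multiplexin share overlapped, at 6.81% and 5.68% at 12 months and 6.23% and 5.85% at 8 weeks. Most of the basement membrane share came from Col4a1 and Col4a2. Of all tested genes, 72.5% had FPKM that did not overlap between the ages. A share within a library does not depend on how the libraries are scaled, but shares of 1 sum are not independent of each other. With 2 libraries against 2, an exact two-sided permutation test cannot go below p = 0.333, so these shares and the ratios that follow are given as descriptions.

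**Figure D3:**
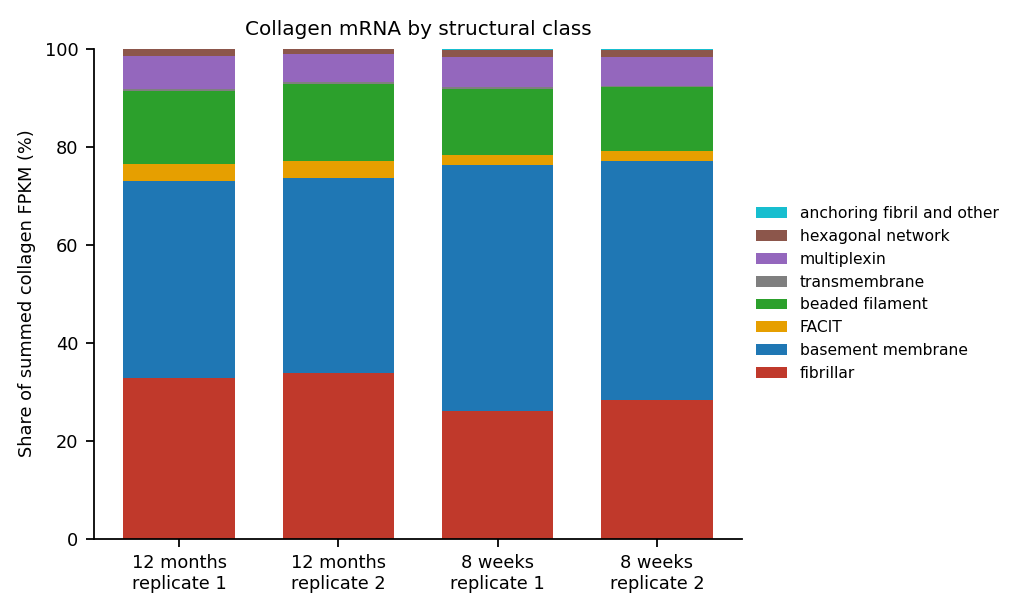
Share of the summed FPKM of all 44 collagen genes taken by each structural class, with 1 bar per library. Basement membrane genes take 40.3% and 39.8% of the 12-month bars and 50.2% and 48.8% of the 8-week bars, and fibrillar genes take 32.7% and 33.7% against 26.1% and 28.3%.

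Ratios between chains were read in the same way, mostly for chains that share a molecule or a fibril. The ratio of Col4a1 to Col4a2 was 1.03 and 1.04 at 12 months and 1.18 and 1.115 at 8 weeks, and that of Col4a1 to Col1a1, a chain of another class, was 2.01 and 1.86 at 12 months and 3.50 and 2.91 at 8 weeks. Col4a5 stood at 0.106 and 0.122 of Col4a1 at 12 months and at 0.058 and 0.0709 of it at 8 weeks. None of these overlapped between the ages. Among type V chains, Col5a3 stood at 0.558 and 0.644 of Col5a1 at 12 months and at 0.753 and 0.742 of it at 8 weeks, and the ratio of Col5a1 to Col5a2 was 1.36 and 1.37 at 12 months and 1.54 and 1.61 at 8 weeks. The ratio of Col1a1 to Col1a2 was 1.63 and 1.46 at 12 months and 1.77 and 1.5 at 8 weeks, and that of Col3a1 to Col1a1 was 1.18 and 1.01 at 12 months and 1.04 and 0.859 at 8 weeks. These last 2 ratios overlapped, as did that of Col6a1 to Col6a2, at 1.74 and 2.01 at 12 months and 1.9 and 1.87 at 8 weeks. Col14a1 stood at 0.242 and 0.218 of Col1a1 at 12 months and at 0.136 and 0.0864 of it at 8 weeks, without overlap. The ratio of Col14a1 to Col12a1 did overlap, at 19.4 and 17.1 at 12 months and 17.4 and 9.72 at 8 weeks.

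**Figure D4:**
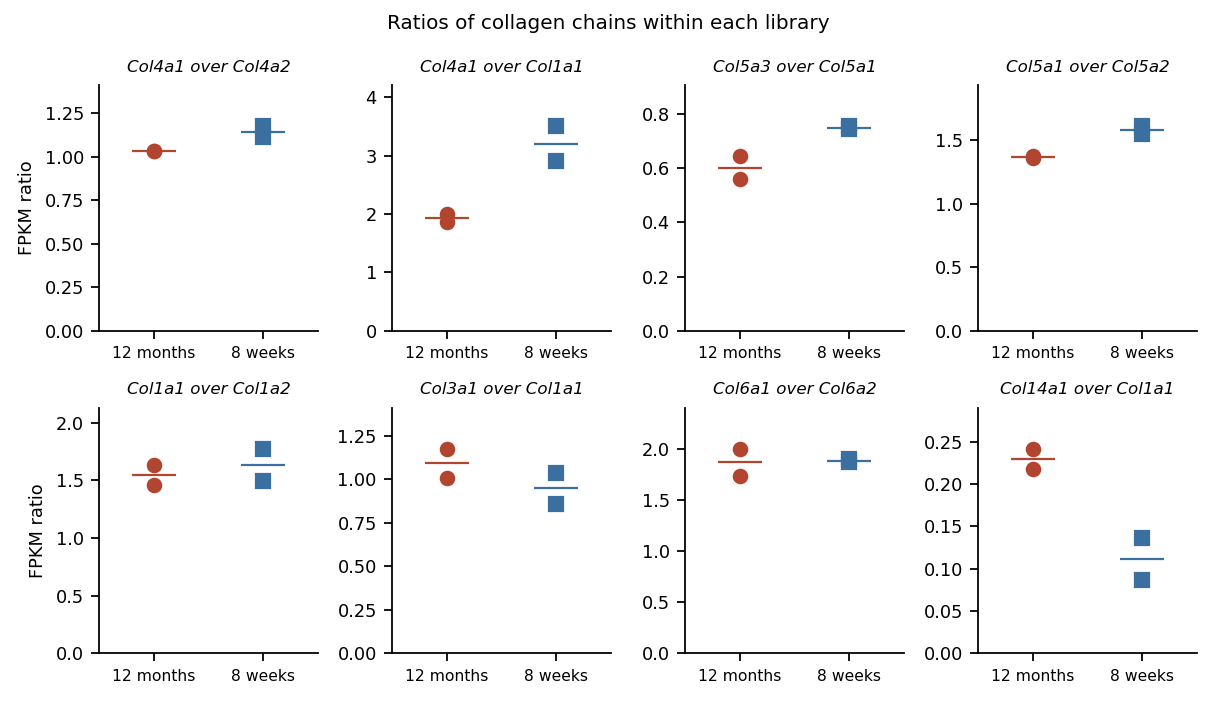
Ratio of the FPKM of a pair of collagen genes in each library (12 months as circles on the left, 8 weeks as squares on the right, lines at the means), on axes that start at 0. Col4a1 over Col1a1 is 2.01 and 1.86 at 12 months against 3.50 and 2.91 at 8 weeks, while Col1a1 over Col1a2 and Col6a1 over Col6a2 overlap.

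Genes that act on collagen were described from 5 lists chosen for their roles, with 79 genes in all, of which 62 were tested. Of these, 17 rose and 7 fell (38.7%), close to the 37.6% called over the whole test, and the median log2 fold change was 0.24. Among 23 tested genes of chain modification and folding, 6 rose and 2 fell, with a median of 0.17. Tmem38b, an ion channel of the endoplasmic reticulum that collagen processing needs, was at 6.79 and 6.88 FPKM at 12 months and at 3.97 and 3.9 FPKM at 8 weeks (0.74 ± 0.09, adjusted p = 0.00274). Fkbp14, a folding isomerase, rose (0.64 ± 0.12, adjusted p = 0.011), as did the general chaperones Hspa5 (0.67 ± 0.07) and Pdia3 (0.35 ± 0.07). The 2 that fell were Colgalt2, which attaches galactose to collagen chains, at 2.27 and 2.24 FPKM at 12 months and 4.33 and 4.31 FPKM at 8 weeks (-0.99 ± 0.11, adjusted p = 0.00222), and the isomerase Ppib (-0.32 ± 0.08).

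Among 9 tested genes of propeptide removal and cross-linking, 2 rose and 1 fell, with a median of 0.10. Bmp1, the protease that removes the C-terminal propeptide, was at 6.32 and 6.38 FPKM at 12 months and at 8.77 and 9.31 FPKM at 8 weeks (-0.57 ± 0.07, adjusted p = 0.00263). Its enhancer Pcolce2 rose (0.41 ± 0.12, adjusted p = 0.0453), and so did the cross-linking enzyme Tgm2, with 95.5 and 75.4 FPKM at 12 months and 48.2 and 45.6 FPKM at 8 weeks (0.81 ± 0.13, adjusted p = 0.0062). Among 16 tested proteins of fibril assembly, 5 rose and 1 fell, with a median of 0.34. The proteoglycan Fmod was at 3.49 and 3.38 FPKM at 12 months and at 1.79 and 0.771 FPKM at 8 weeks (1.36 ± 0.37, adjusted p = 0.0322). Comp, best known from cartilage and tendon, rose by 1.38 ± 0.42 (adjusted p = 0.0461). Ogn (0.42 ± 0.11) and Dpt (0.31 ± 0.07) rose less. Sparc, a collagen chaperone that is also made by endothelial cells, fell, with 92.9 and 77.5 FPKM at 12 months and 129 and 136 FPKM at 8 weeks (-0.69 ± 0.11, adjusted p = 0.00604).

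Among 6 tested collagen receptors, 2 rose and 2 fell, with a median of 0.05. The receptor kinase Ddr1 rose (0.81 ± 0.15, adjusted p = 0.00875), as did the shared integrin chain Itgb1 (0.49 ± 0.09, adjusted p = 0.00879). Itga1, the integrin chain that binds type IV collagen, was at 2.09 and 2.24 FPKM at 12 months and at 3.96 and 3.61 FPKM at 8 weeks (-0.86 ± 0.08, adjusted p = 0.00143), and Adgrg1, a receptor for type III collagen, also fell (-0.56 ± 0.07, adjusted p = 0.00302). Among 8 tested collagenases, gelatinases and their inhibitors, 2 rose and 1 fell, with a median of 0.26. The membrane-bound collagenase Mmp14 rose (0.58 ± 0.12, adjusted p = 0.0153). The inhibitor Timp2 was at 48.5 and 48.8 FPKM at 12 months and at 27.9 and 26.3 FPKM at 8 weeks (0.79 ± 0.07, adjusted p = 0.00152), and Timp4, an inhibitor abundant in heart, was at 8.35 and 9.99 FPKM at 12 months and at 16.2 and 14.5 FPKM at 8 weeks (-0.80 ± 0.10, adjusted p = 0.00325).

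The 3 genes that fell were not called in every fit. Among the fits that left out 1 library, Col4a1 lost its call without 8-week replicate 1 or 8-week replicate 2, and Col5a3 without 8-week replicate 2. Col11a2 lost it in each of these fits but the one without 12-month replicate 2. With 8-week replicate 1 or 2 left out, the log2 fold change of Col4a1 was -0.55 or -0.52, against -0.53 with all libraries. That of Col5a3 was -0.57 or -0.38, against -0.48, and that of Col11a2 was -0.69 or -0.53, against -0.61. In both fits fewer genes were called over the whole test, and why these 3 lost their calls was not tested. The transcripts of Col4a1, Col5a3 and Col11a2 have GC contents of 57.7%, 61.6% and 62.9%, and that of Col14a1 has 49.7%. The median was 56.4% over the tested collagen genes and 50.1% over all tested genes. With a smooth trend of GC content removed from each library, the log2 fold change was -0.43 for Col4a1 (adjusted p = 0.0682) and -0.28 for Col5a3 (adjusted p = 0.0958). It was -0.39 for Col11a2 (adjusted p = 0.153), while Col14a1 was still called (1.19, adjusted p = 0.00953).

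**Figure D5:**
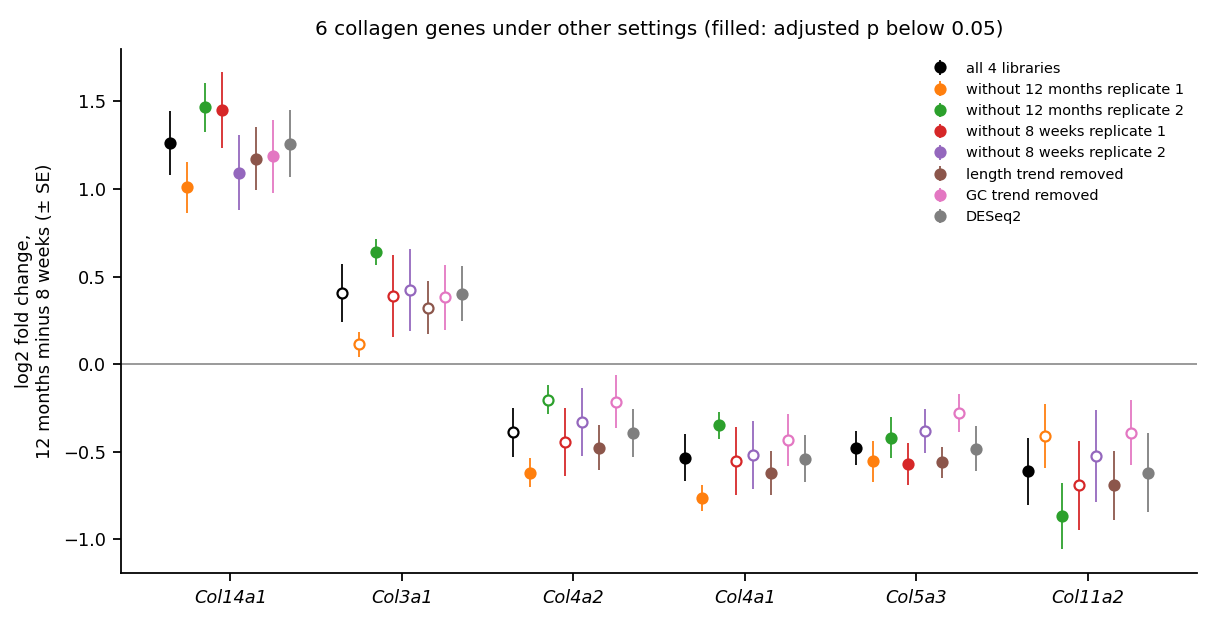
Log2 fold change (12 months minus 8 weeks, ± SE) of 6 collagen genes with all 4 libraries (leftmost point of each gene), with each library left out in turn, with the length or GC trend removed and with DESeq2. Filled points passed an adjusted p below 0.05. Col14a1 is filled throughout, and Col4a1, Col5a3 and Col11a2 keep their sign but lose the call in some of the fits.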

How the data were processed

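The authors deposited 1 gene table with, per the file headers, an FPKM value and an estimated count per gene and library. The expected counts are whole numbers as deposited. Named in the submitters' processing notes are HISAT2 2.2.1, StringTie 2.1.6, cutadapt 1.9, edgeR, DESeq2 and, as build, GRCm38. For their roles, the annotation, the strand setting and reads that map to several places, the sources used here give nothing. Libraries were strand-specific (dUTP) and paired-end, per the labels. Of the 44 collagen genes, 38 have the same coordinates in GENCODE M21 (GRCm38), and for 10 of the 19 tested the gene body overlaps a further gene (4 of them 1 on their own strand), so reads may be shared.

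Here, genes with a mean of at least 1 FPKM over the 4 libraries were tested on the counts with edgeR 4.0.16 in R 4.3.3 (TMM scaling, intercept and age, 12 months minus 8 weeks, two-sided, common dispersion 0.0243, 2 residual and 4.03 prior degrees of freedom). The p-values were adjusted over all 12027 genes by Benjamini-Hochberg. The SE was computed as |log2 fold change| / √F. Alternatives used other minima (0.1, 5 or none), RLE scaling, DESeq2 1.42.0, limma 3.58.1 on log2(FPKM + 1) or log2(FPKM + 0.1), limma with FPKM rescaled to one sum, a threshold of 0.01, removal of length or GC trends (mgcv 1.9.3, 8 basis functions), and each library left out in turn. Class and list counts are descriptions, with no set test.

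Named were every collagen gene and, of each other list, the 5 called members with the smallest p and every called member that moved against the list. Myh6, Wt1 and the valve and cartilage markers other than Prg4 and Cilp2 were named outside that rule. The collagen genes, their classes and all lists were chosen with earlier results of these data known. Col3a1 and Col4a2 were added to the comparison of settings after their values were seen. Figures were drawn with matplotlib 3.10.9 in Python 3.11.15. The number of count or FPKM columns without a sample was 0.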

Additional observations from a re-analysis of the deposited data

How the results depend on the processing

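Each setting below changed 1 choice, except DESeq2 and limma. DESeq2 changes the test and the scaling together. Limma, on FPKM as deposited or rescaled to one sum, changes the test, the values tested and their scaling together. The number of collagen genes called higher (1 in the reported fit) was 2 with DESeq2, with a minimum of 0.1 FPKM, with no minimum and with limma after that rescaling, 0 with a minimum of 5 FPKM, which leaves Col14a1 out of the test, and 1 to 5 with a library left out. The number called lower (3) was 1 with no minimum, 0 with limma after rescaling, with the GC trend removed and at an adjusted p below 0.01, and 0 to 5 with a library left out. The cause of these shifts was not tested beyond the change of setting itself. With limma on log2(FPKM + 1), 1 was called higher and 2 lower without the rescaling. The median log2 fold change of all tested genes was 0.049 with limma and 0.16 with limma after rescaling. After rescaling, the log2 fold change was -0.339 for Col4a1, -0.229 for Col5a3 and -0.235 for Col11a2, and none of them was called. Whether the higher median bears on these lost calls was not tested.

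Class medians moved as well. The basement membrane median (-0.21) was -0.44 with a minimum of 5 FPKM and -0.45 to -0.023 with a library left out. The FACIT median (0.63, over 2 tested genes) was 0.036 with a minimum of 0.1 FPKM and 0.036 with none and 0.47 to 0.77 with a library left out, and the beaded filament median (0.07) was 0.20 and 0.54 with those lower minima, 0.24 with one FPKM sum and -0.072 to 0.25 with a library left out. The fibrillar median (0.06) ranged from -0.14 to 0.22 with a library left out. Of the 5 lists of genes that act on collagen, 8 to 25 genes were called higher (17) and 6 to 12 lower (7) with a library left out.

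The signs of 9 genes, none called in the reported fit, turned in 23 fits: Col15a1 (0.048 with one FPKM sum, -0.50 to 0.18 with a library left out), Col16a1 (-0.070 without the length trend, -0.14 to 0.18), Col1a2 (-0.015 to 0.53), Col4a4 (0.0055 and 0.0064 with limma at pseudocounts of 1 and 0.1, 0.083 with one FPKM sum, -0.28 to 0.16), Col5a1 (0.042 with one FPKM sum, -0.34 to 0.0032), Col5a2 (-0.028 without the length trend, -0.021 without the GC trend, -0.14 to 0.22), Col6a1 (-0.0080 with a minimum of 5 FPKM, -0.028 without the length trend, -0.072 to 0.13), Col6a2 (-0.0088 without the length trend, -0.16 to 0.25) and Col6a3 (-0.012 to 0.52). A fit with 1 library at an age assumes that it varies like the other age. No paired analysis was possible because the labels give no number that pairs the ages. Depth limits the 10 collagen genes under 0.1 FPKM.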

Other observations

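Proteins outside the family that carry a collagen domain were described from a list of 32 genes, of which 18 were tested, with 4 higher and 4 lower at 12 months and a median log2 fold change of 0.08. Over all tested genes 37.6% were called, so this count is close to the background. C1qtnf9, a secreted protein of heart and fat, was at 8.27 and 9.50 FPKM at 12 months and at 22.0 and 23.0 FPKM at 8 weeks (-1.40 ± 0.10, SE, adjusted p = 0.0012 with edgeR). Its relatives C1qtnf2 (-0.99 ± 0.24, adjusted p = 0.0216) and C1qtnf6 (-0.61 ± 0.18, adjusted p = 0.0391) fell too. Colec11, a lectin of the complement system, was at 4.5 and 5.66 FPKM at 12 months and at 9.71 and 10.3 FPKM at 8 weeks (-1.04 ± 0.14, adjusted p = 0.00384), while the scavenger receptor Colec12 rose (0.95 ± 0.12, adjusted p = 0.00265). Scara3 (0.81 ± 0.23, adjusted p = 0.0364) and Fcna, a ficolin of macrophages (1.01 ± 0.22, adjusted p = 0.0158), rose as well. Adipoq, the fat cell hormone adiponectin, was at 9.16 and 14.6 FPKM at 12 months and at 1.07 and 0.474 FPKM at 8 weeks. It is 1 of the 4 counted as higher. It reached the minimum of 1 FPKM only through the 12-month libraries, so its call is not read as a result.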
